A study of Mus musculus with 912 samples.

Results

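Dentate granule (DG) nuclei that had been sorted for FOS protein were divided here by whether they also held Fos mRNA, and the 2 kinds of nuclei were compared within each mouse. Of 219 DG nuclei sorted FOS+, 204 had at least 4000 genes above 1 in the log2(TPM+1) table, where TPM is a level scaled to library size and corrected for transcript length. Among these, 73 nuclei had Fos above 1 and formed the class with Fos mRNA, and 124 nuclei had an expected count of 0 for Fos and formed the class without Fos mRNA. The remaining 7 nuclei had 1 or 2 counts of Fos but a level at or below 1 and were left out. The 197 members were drawn from 912 nuclei in the whole series.

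The nuclei came from the hippocampus of 9 wild-type female C57BL6 mice, 8.7 to 9 weeks old by the first age label of each mouse. A>C mouse 14 carried 2 ages in its labels and was treated here as a single mouse. The 1h mouse explored an unfamiliar environment for 15 min and was sampled 1 h after it went back to the homecage, and its nuclei were sorted as PROX1+CTIP2+ with FOS staining alone. The 6 A>A mice met environment A and later the same environment again, and the 2 A>C mice met environment A and later the different environment C, each sampled 1 h after the second exposure. The FOS+ nuclei of the A>A and A>C mice were sorted as PROX1+CTIP2+ARC+FOS+, so that they also carried ARC protein. No transgene or reporter was used in any group. In 5 of the mice (the 1h mouse and A>A mice 24, 25, 26 and 27) FOS- DG nuclei had been sequenced as well. These were ARC+FOS- in the A>A mice and FOS- with no ARC staining in the 1h mouse. Each mouse belonged to 1 labelled batch, and so the classes of a mouse shared it.

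Fos is an immediate early gene. Calcium and cAMP signals that follow synaptic activity act on transcription factors already bound to its promoter, such as CREB and serum response factor, and its mRNA appears within minutes and decays quickly, whereas FOS protein builds up later and outlasts the message. In the dentate gyrus few granule neurons express FOS in any environment, and staining for the protein is a common way to find neurons that were recently active. A nucleus holds newly made transcripts for the most part, so a nuclear mRNA reading lies closer to ongoing transcription than a reading from the whole cell.

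Promoters of 3 genes that return in the values below are shown because they carry the core of the cAMP response element, the sequence that CREB binds. Capitals mark TGACG or its reverse complement CGTCA in the 250 bases before the RefSeq transcription start (build GRCm38.p6), printed 5′ to 3′ on the strand of the gene. The Fos window lies at chr12:85473640-85473889 on the plus strand, with matches that begin at positions -129 and -66 relative to the start. The window of Nr4a1, an orphan nuclear receptor, lies at chr15:101266596-101266845 on the plus strand and holds 4 matches. The window of Npas4, a neuron-specific activity-regulated transcription factor, lies at chr19:4989972-4990221 on the minus strand, with matches at -179 and -169.
Fos: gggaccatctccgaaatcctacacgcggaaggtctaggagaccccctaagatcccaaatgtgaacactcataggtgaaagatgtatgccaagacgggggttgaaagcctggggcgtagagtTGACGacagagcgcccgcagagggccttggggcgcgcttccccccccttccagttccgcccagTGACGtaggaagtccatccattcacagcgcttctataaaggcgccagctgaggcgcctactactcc
Nr4a1: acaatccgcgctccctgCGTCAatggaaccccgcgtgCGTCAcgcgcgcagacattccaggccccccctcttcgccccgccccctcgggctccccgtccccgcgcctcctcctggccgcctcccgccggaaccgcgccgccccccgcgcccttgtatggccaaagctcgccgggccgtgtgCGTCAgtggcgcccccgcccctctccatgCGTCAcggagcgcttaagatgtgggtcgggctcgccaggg
Npas4: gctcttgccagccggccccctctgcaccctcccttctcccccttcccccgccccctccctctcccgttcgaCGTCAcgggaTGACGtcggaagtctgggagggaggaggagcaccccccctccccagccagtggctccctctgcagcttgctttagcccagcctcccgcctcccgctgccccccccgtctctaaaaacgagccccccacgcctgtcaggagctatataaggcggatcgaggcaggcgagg
At least 1 match was present in 17.8% of 32851 such mouse promoter windows. Of 118 windows that belonged to 83 matched genes of the activity lists described below, 54 (45.8%) held one, as did the windows of all 3 Nr4a receptors. A match describes the letters of the window and not binding.

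Fos mRNA chose the classes, and its levels are therefore a description. In nuclei with Fos mRNA it ranged from 1.01 to 11.2 on the log2(TPM+1) scale with a median of 8.24, which corresponded to 1 to 6597 counts with a median of 379. The levels had a low and a high group, with 49 nuclei above 5, 20 nuclei below 3 and 4 nuclei in between. Of the 73 nuclei, 18 owed their place to 3 counts or fewer. The lowest nucleus inside the class was at 1.01 on 1 count, and the nearest one outside it was at 0.92, also on 1 count. The share of kept FOS+ nuclei with Fos mRNA differed widely among the mice, from 5.26% in A>A mouse 26 (1 of 19 nuclei) to 68.4% in A>A mouse 24 (13 of 19 nuclei). The 1h mouse stood at 61.5%, and both A>C mice stood at 37.5%. A>A mouse 27, the only other mouse of the batch of mouse 26, was next lowest at 8.70%. A>A mouse 25, of the same batch as mouse 24, stood at 39.1%. The part of the batch in these shares was not tested. FOS- nuclei were not free of the message, since 16 of 116 kept FOS- nuclei had Fos above 1 and 91 had none. Many of the 16 rested on few counts. The 4 in the 1h mouse held 1 or 2 counts, and the 7 in A>A mouse 24 had a median of 1 count. The highest in A>A mice 24, 25 and 27 held 713, 780 and 956 counts.

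**Figure D1:**
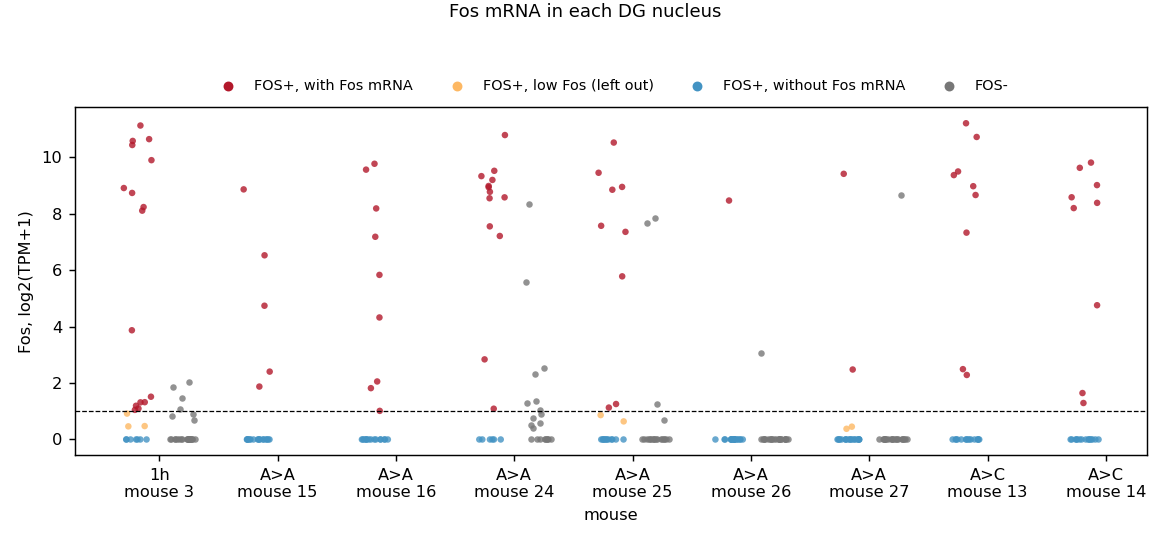
Fos level of every kept DG nucleus in log2(TPM+1) by mouse, where each point is 1 nucleus, colours give the class and stain, and the dashed line is the level of 1 that set the class. Points of FOS+ nuclei lie mostly above 5 or below 3, and A>A mouse 26 has a single FOS+ nucleus above the line.

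Sequencing depth could itself decide whether a Fos transcript is counted, so it was compared first. Total counts per nucleus ranged from 187539 to 3350952 in the class with Fos mRNA and from 204531 to 4424338 in the class without. The mean over mice of the median total count was 1.39e+06 with and 1.28e+06 without Fos mRNA, higher in 6 of 8 mice (two-sided exact sign-flip permutation test over mice, p = 0.0703, where 0.0078 is the smallest p possible). The corresponding mean number of genes above 1, Fos excluded, was 5184 against 5197 (exact permutation p = 0.953). The part of depth in the differences below was not tested beyond the thinned values given beside them. Thinned shares hold nuclei with any count of the gene, so they are not on the scale of the unthinned shares above 1.

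The DG label was checked against marker genes. Prox1, the transcription factor that marks granule neurons, was above 1 in 95.3% of nuclei with Fos mRNA and 92.3% of nuclei without, as means over 8 mice. The nuclei had been sorted on PROX1 and CTIP2 protein, so Prox1 is not an independent check of the label. Bcl11b, the gene of CTIP2 and also a granule neuron marker, was above 1 in only 13.5% with and 23.9% without Fos mRNA. Of 14 granule neuron markers, 8 were above 1 in at least 50% of nuclei in both classes, with summed levels of 1115 to 2533 TPM per mouse with and 1198 to 2269 TPM without Fos mRNA. The 12 interneuron markers summed to 426 to 2644 TPM with and 1430 to 3699 TPM without, and the 13 pyramidal neuron markers to 704 to 1671 TPM and 807 to 1385 TPM. The 20 glial and vascular markers were low in both classes, at 19.6 to 402 TPM and 68.0 to 400.1 TPM. Slc32a1, the vesicular GABA transporter, Mog, a myelin protein, and Cldn5, an endothelial junction protein, were at 0 in every nucleus with Fos mRNA, and Cldn5 was also at 0 in the class without. Other members of the same lists were detected in many nuclei of both classes. Cck, a neuropeptide, was above 1 in 89.6% of nuclei with and 89.7% without Fos mRNA, Adarb2, an interneuron marker, in 64.0% and 72.3%, and Gad1, a GABA-synthesizing enzyme, in 54.2% and 59.3%. Among the glial markers, the astrocytic glutamate transporter Slc1a3 was above 1 in 68.4% and 57.8%, the myelin protein Mbp in 63.3% and 44.2%, and the myelin protein Mag in 50.9% and 58.0%. Of the pyramidal neuron markers, Nr3c2, a steroid receptor, and the pentraxin Nptx1 were above 1 in at least 50% of nuclei in both classes. The part of these cells in the results was not tested.

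No gene passed the test of nuclei with against nuclei without Fos mRNA. The comparison asked which transcripts go with ongoing Fos transcription among nuclei that all carry the protein. Nuclei were summed per mouse and class, and 8 mice gave at least 2 nuclei to each class (72 with and 106 without), which left A>A mouse 26 out. With edgeR's quasi-likelihood test and mouse as a block, 0 of 11442 genes (0%) had a Benjamini-Hochberg adjusted p under 0.05, and 345 (3.02%) had an unadjusted p under 0.05, of which 100 were higher and 245 lower with Fos mRNA. By limma on the mean log2(TPM+1) of each class, 0 of 9840 genes passed (536 unadjusted), and by DESeq2 545 of 11442 did (4.76%), 114 higher and 431 lower. Over all genes tested the median log2 fold change was -0.19. On the scale of mean log2(TPM+1), where each nucleus of a class has the same weight, 48.1% of 11445 genes were higher with Fos mRNA and the median difference was -0.01.

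Activity-regulated genes are given by role, in 6 lists that hold 107 genes besides Fos. The lists comprise partners of FOS, zinc finger factors, nuclear receptors, other rapid regulators, signalling feedback and effector proteins. Of these, 80 genes were tested by edgeR, with a median log2 fold change of 0.13 against -0.19 over all genes, and 5 of them (6.25%, against 3.02% of all genes) had an unadjusted p under 0.05. Those 5 were Sgk1, Homer1, Arl4d and Ptgs2, each higher with Fos mRNA (4 of 80, against 0.874% of all genes in that direction), and Lingo1, which was lower. DESeq2 called 2 of the 80 higher (Sgk1 and Npas4) and 1 lower (Bhlhe40), or 3.75%, against 4.76% of all genes. On the mean log2(TPM+1) scale, 82 genes were above 1 in at least 10% of nuclei, and 59 of the 82 were higher with Fos mRNA, with a median difference of 0.25. The difference exceeded its own SD over mice in 6 of the 82.

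FOS acts as a dimer with JUN proteins in the AP-1 complex. Junb, a JUN family member, had per-mouse means of 0 to 7.89 (median 6.58) with Fos mRNA and 3.72 to 6.32 (median 4.82) without. It was higher in 7 of 8 mice although the ranges overlapped, and the difference was 1.05 ± 2.21 (SD, n = 8). Fosl2, a FOS family member, was higher in 6 of 8 mice by 0.80 ± 1.91 (SD), with 65.4% against 53.0% of nuclei above 1. Jun differed by 0.10 ± 1.69 (SD) and was higher in 3 of 8 mice, and Fosb, another FOS family member, differed by 0.46 ± 1.63 (SD) and was higher in 4 of 8. Atf3, a stress- and activity-induced bZIP factor, was 0.77 lower with Fos mRNA, against an SD of 2.01. Over the 8 tested genes of this list the median log2 fold change was -0.04, with 4 higher and none at an unadjusted p under 0.05.

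In the Egr and Nab list, the zinc finger factors Egr2, Egr3 and Egr4 and the corepressor Nab2 were above 1 in fewer than 50% of nuclei of either class. Egr4 was above 1 in 22.8% of nuclei with and 11.8% of nuclei without Fos mRNA, and was higher in 6 of 8 mice. Egr2 was above 1 in 12.7% and 8.26% of nuclei. Egr3 was above 1 in 27.4% against 27.0%. Nab2 was above 1 in 40.7% against 48.2%, while its level differed by 0.22 ± 1.56 (SD) and was higher in 4 of 8 mice. Of 5 tested genes, none had an unadjusted p under 0.05.

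The Nr4a genes encode orphan nuclear receptors that are induced within minutes of activity. Nr4a1 had per-mouse means of 3.03 to 6.39 (median 5.13) with Fos mRNA and 2.24 to 5.18 (median 3.09) without, and was above 1 in 73.7% against 48.4% of nuclei. The ranges overlapped, but 7 of 8 mice had the higher value with Fos mRNA, by 1.56 ± 1.36 on the log2(TPM+1) scale (SD, n = 8). Nr4a3 ranged from 2.73 to 6.57 (median 3.58) with and from 1.72 to 4.02 (median 2.90) without, again higher in 7 of 8 mice, by 1.35 ± 1.39 (SD). Nr4a2, in contrast, was found in 65.9% of nuclei with and 75.2% of nuclei without Fos mRNA, and differed by -0.11 ± 1.66 (SD). In summed counts the edgeR log2 fold change of Nr4a3 was 0.68 ± 0.51 (SE) over all mice and -0.01 in the A>A mice alone. The adjusted p values of Nr4a1 and Nr4a3 by limma were both 0.81, and so neither passed the test.

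Among other rapid transcription regulators, Npas4 had per-mouse means of 0 to 2.34 (median 1.45) with and 0 to 0.82 (median 0.38) without Fos mRNA. No mouse had a higher value without, 7 of 8 were higher with, and A>A mouse 27 was at 0 in both. On average 22.3% of nuclei with and 8.46% of nuclei without Fos mRNA had Npas4 above 1. After each nucleus was thinned to 100000 counts, the same shares had any count of it. The edgeR log2 fold change of its summed counts was 3.57 ± 1.71 (SE). Npas4 was called by DESeq2 (adjusted p = 0.027) but not by edgeR or limma. Bhlhe40, a repressor of the clock family, went the other way in the sums, with a log2 fold change of -4.06 ± 1.88 (SE), and was called by DESeq2 (adjusted p = 0.0039) but not by edgeR.

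The antiproliferative cofactor Btg2 was higher with Fos mRNA in 6 of 8 mice by 0.88 ± 1.77 (SD) and the nuclear factor Csrnp1 in 6 of 8 by 0.64 ± 1.30 (SD). Klf9, a Krüppel-like factor, differed by 1.61 ± 2.21 (SD) but was higher in 4 of 8 mice. Kdm6b, a histone H3 lysine 27 demethylase, was present in nearly every nucleus of both classes. It averaged 6.45 with and 6.15 without Fos mRNA. Per1, a clock gene with cAMP response elements, stood at 81.3% and 82.7% of nuclei.

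Among signalling feedback regulators, Sgk1 differed in the same direction in every mouse compared. This kinase is induced by glucocorticoids and by neuronal activity. Its per-mouse means were 6.76 to 9.86 (median 8.81) with and 5.31 to 7.99 (median 6.72) without Fos mRNA. Although the ranges overlapped between mice, all 8 mice had the higher value with Fos mRNA, by 1.90 ± 1.16 (SD). After correction over all genes this did not pass (limma adjusted p = 0.79). In summed counts the log2 fold change was 0.77 ± 0.26 (SE), and Sgk1 was called by DESeq2 (adjusted p = 0.029). The DESeq2 calls among the activity genes (3.75%) were no more frequent than among all genes (4.76%). Sgk1 was above 1 in 96.3% of nuclei with and 93.3% without Fos mRNA. After thinning to 100000 counts, 94.1% and 81.0% had any count of it, which is a different criterion.

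On one scale most of the feedback genes were higher with Fos mRNA, and 18 of 20 detected members of that list had a positive difference on the mean log2(TPM+1) scale. In summed counts 12 of 19 tested members were higher in edgeR, and 10 of 19 after thinning. Dusp14, a dual-specificity phosphatase, was higher in 7 of 8 mice by 0.99 ± 1.13 (SD). Gadd45g, which takes part in stress signalling and DNA demethylation, was higher in 5 of 8 mice by 1.44 ± 2.01 (SD), and Errfi1, an inhibitor of EGF receptor signalling, in 6 of 8 by 1.01 ± 1.58 (SD). The members Plk2 and Spry2 were nearly level. Plk2, a polo-like kinase that acts at synapses, averaged 10.5 and 10.3, and Spry2, an inhibitor of receptor tyrosine kinase signalling, averaged 8.62 and 8.52, each with 100% of nuclei above 1 in both classes.

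Effector genes act at the synapse or leave the cell. Arc, a regulator of AMPA receptor trafficking whose protein was part of the sort in 7 of the 8 mice compared, had per-mouse means of 9.38 to 10.4 (median 9.98) with and 8.29 to 10.0 (median 9.29) without Fos mRNA. It was higher in 7 of 8 mice, by 0.71 ± 0.63 (SD), with overlapping ranges. Homer1, a postsynaptic scaffold protein, was higher in 6 of 8 mice by 0.81 ± 0.91 (SD). Rheb, an activator of mTOR complex 1, was higher in 6 of 8 by 0.89 ± 0.84 (SD). Ptgs2, the inducible cyclooxygenase, was higher in 5 of 8 by 0.63 ± 1.34 (SD).

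Several of the best-known effectors hardly differed with Fos mRNA. Bdnf, the neurotrophin, was above 1 in 100% of nuclei in both classes, at per-mouse means of 7.80 to 9.78 with and 8.18 to 10.0 without. Inhba, the activin A subunit, averaged 10.3 with and 10.1 without. Pcdh8, an activity-induced protocadherin, differed by 0.00 ± 0.81 (SD).

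Nptx1, a neuronal pentraxin that clusters AMPA receptors, ran opposite to Sgk1. It was also 1 of the 13 pyramidal neuron markers. Its per-mouse means were 4.52 to 6.52 (median 5.60) with and 6.15 to 8.75 (median 6.67) without Fos mRNA, and 0 of 8 mice had the higher value with Fos mRNA. The difference was -1.22 ± 0.88 (SD), with 74.6% against 92.0% of nuclei above 1, and the limma adjusted p was 0.81. In summed counts the log2 fold change was only -0.31 ± 0.26 (SE). Lingo1, a membrane protein that restrains neurite growth, was lower in 6 of 8 mice, by 0.81 on average against an SD of 0.89. Scg2, a secretory granule protein, was also lower in 6 of 8 mice, with an SD of 1.25 around a difference of -0.94.

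**Figure D2:**
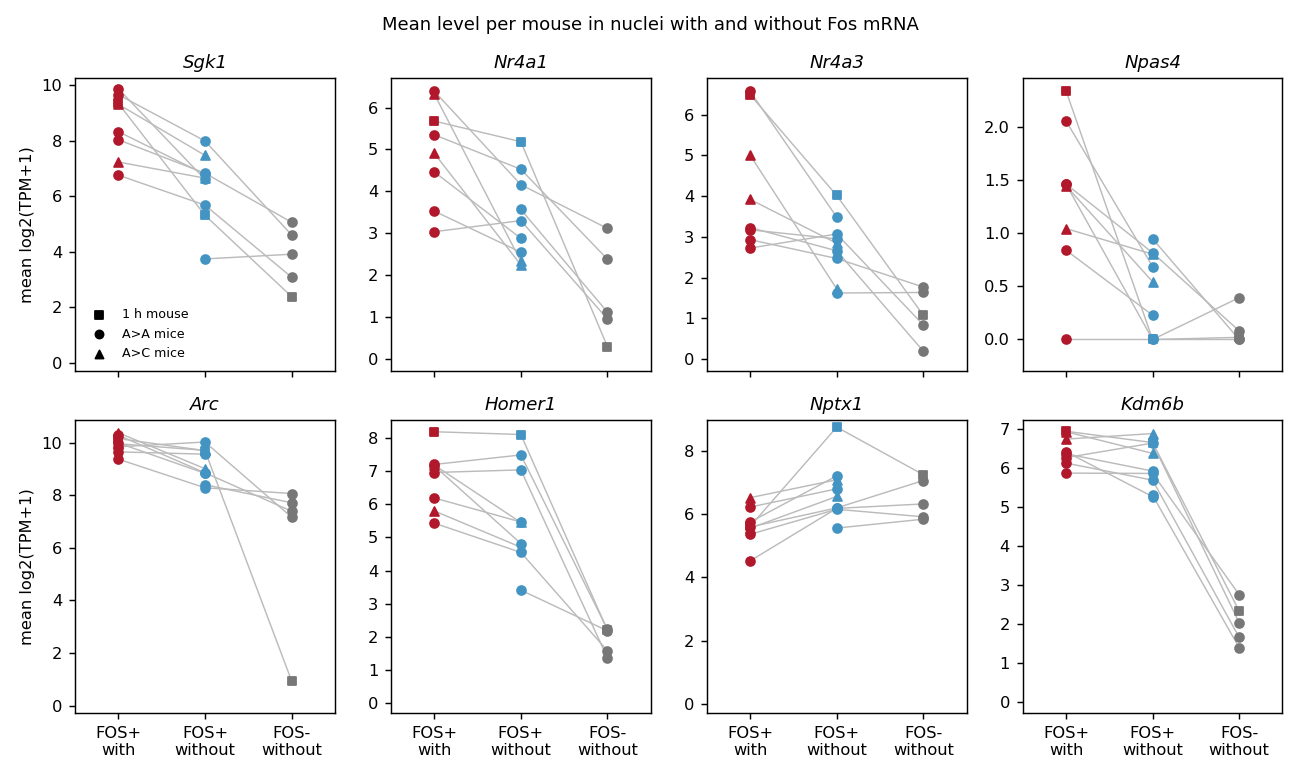
Mean log2(TPM+1) per mouse of 8 genes in FOS+ nuclei with Fos mRNA, FOS+ nuclei without and FOS- nuclei without, with a grey line for each mouse, symbols for the exposure and separate vertical scales. Sgk1 is higher and Nptx1 lower with Fos mRNA in all 8 mice with both classes. Kdm6b is far lower in the FOS- nuclei of all 5 mice that had them. Homer1 is lower there in all 5, but less so in A>A mouse 26 (2.19 against 3.41 in FOS+ nuclei without Fos mRNA).

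**Figure D3:**
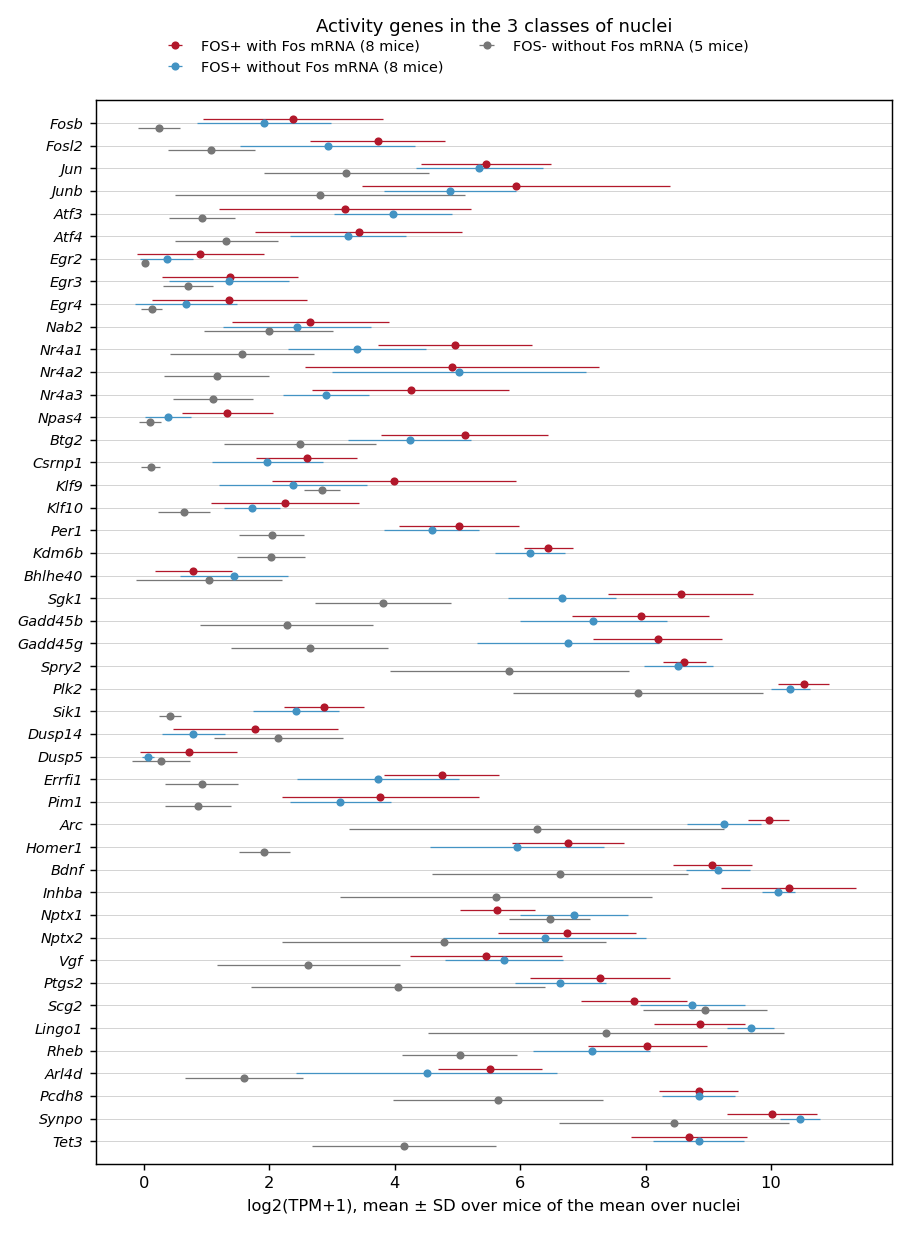
Mean log2(TPM+1) of 46 activity genes in the 3 classes, with points for the mean over mice of the mean over nuclei and bars for 1 SD over mice (8 mice for both FOS+ classes, 5 for FOS-). The red and blue bars overlap for nearly every gene, and Tet3, Inhba and Kdm6b are examples with the grey point far to the left.

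Genes that act upstream of Fos transcription were examined as a separate list of 31, among them NMDA receptor subunits, CREB and its coactivators, MAP kinases and MEF2 and serum response factor partners. Of 27 tested, 12 were higher with Fos mRNA, the median log2 fold change was -0.10, and 1 (3.70%) had an unadjusted p under 0.05, close to the 3.02% of all genes. That gene was Grin2b, an NMDA receptor subunit, with a log2 fold change of -0.43 ± 0.16 (SE). Creb1 was above 1 in 58.0% of nuclei with and 43.2% without Fos mRNA. By the different criterion of any count after thinning to 100000 counts, it was detected in 21.5% and 29.8%. Its edgeR log2 fold change was -1.51 ± 1.60 (SE), so that no direction can be read for it. Mef2a, a MADS-box factor, was above 1 in 22.2% with and 38.8% without, and had any count in 19.7% and 37.5% after thinning.

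Nuclei with the highest Fos were then set against nuclei without Fos mRNA, a choice made after the data were seen, since a level near 1 can rest on a single count. With Fos above 5 in place of 1, 7 mice remained. Again 0 of 11124 genes passed in edgeR (446 unadjusted) and 0 of 9625 in limma (559 unadjusted). The limma differences were 2.56 ± 0.48 (SE) for Nr4a1, 2.49 ± 0.55 for Junb, 2.46 ± 0.43 for Sgk1 and 1.51 ± 0.35 for Npas4, against 1.56, 1.05, 1.90 and 0.95 with the lower threshold. Other differences were smaller with the higher threshold, at 0.32 against 0.81 for Homer1, 1.15 against 1.44 for Gadd45g, 1.38 against 1.61 for Klf9, 0.44 against 0.63 for Ptgs2, -0.41 against -0.81 for Lingo1 and -0.41 against -0.94 for Scg2. The higher threshold also dropped A>A mouse 27, where Junb was at 0 with Fos mRNA, so the threshold and the set of mice changed together. For Inhba, Plk2, Spry2 and Kdm6b the same differences were 0.06 ± 0.31, 0.07 ± 0.17, 0.01 ± 0.24 and 0.24 ± 0.32 (SE).

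Outside the lists, the genes named by rule were those with the smallest unadjusted p that had the same sign in all 8 mice. Such an even sign was found for 25 genes in the higher direction (0.218% of those tested) and 80 in the lower direction (0.699%). The lowest adjusted p belonged to Ccnf, cyclin F, an F-box protein of a ubiquitin ligase, at 0.074 by edgeR. Without A>A mouse 27, which gave 2 nuclei to the class with Fos mRNA, its edgeR adjusted p was 0.047. Its counts were 2 over 2 of 72 nuclei with Fos mRNA and 7295 over 23 of 106 nuclei without, so that it was detected in few nuclei of either class. Ccnf passed the count filter only through the class without Fos mRNA, so only a lower value could be found. Other genes with lower sums were Asic1, an acid-sensing ion channel (7 of 72 against 18 of 106 nuclei), the predicted gene Gm2531 (3 against 9 nuclei), the cAMP phosphodiesterase Pde4d (19 of 72 against 46 of 106 nuclei) and the mitochondrial transcription factor Tfam (14 against 23 nuclei). Their adjusted p by edgeR was 1 in each case.

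Genes named in the higher direction were detected more widely, apart from Gm13622. Hectd2, a ubiquitin ligase gene, was counted in 100% of nuclei, at a mean of 465 CPM (summed counts scaled to library size) with and 297 CPM without Fos mRNA, a log2 fold change of 0.64 ± 0.18 (SE). Arpp21, which encodes a cAMP-regulated phosphoprotein, stood at 2012 and 1184 CPM, a log2 fold change of 0.70 ± 0.21 (SE). The predicted gene Gm16586 stood at 608 and 245 CPM. Mpdu1, a gene of dolichol-linked sugar use, was counted in 48.6% and 48.1% of nuclei but at a mean of 101.6 against 8.82 CPM, and Gm13622 in 13.9% and 9.43% of nuclei. None of the genes named in the higher direction passed the test, with an edgeR adjusted p of 1 for each. DESeq2 called all 10 genes named in the 2 directions, against 4.76% of all genes. They were chosen by their edgeR p on the same sums, so these calls are not separate evidence.

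To see where FOS+ nuclei without Fos mRNA stood, they were compared with FOS- nuclei without Fos mRNA in the 5 mice that had both, 62 nuclei against 91. In the A>A mice this pair of classes differed in the FOS stain among ARC+ nuclei, and in the 1h mouse in the FOS stain alone. With edgeR, 0 of 14457 genes passed (0%) and 1165 (8.06%) had an unadjusted p under 0.05. Without the 1h mouse 1 gene passed, Dclk1, a kinase gene described below. DESeq2 called 2222 (15.4%) and limma called 2 of 9921 (0.0202%). The FOS+ class had fewer genes above 1, at a mean of 5156 against 5516 and lower in all 5 mice (exact sign-flip permutation p = 0.0625, the smallest possible with 5 mice). The part of this difference in the gene values was not tested beyond the thinned counts.

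Kdm6b passed in limma, with per-mouse means of 5.29 to 6.65 in FOS+ nuclei without Fos mRNA and 1.39 to 2.75 in FOS- nuclei. The ranges did not overlap, and the difference was 3.99 ± 0.37 (SE, limma adjusted p = 0.016). It was counted in 100% of the 62 FOS+ and 62.6% of the 91 FOS- nuclei. Rasl10a, a RAS-like GTPase gene that was chosen after its values were seen, passed in the other direction, with means of 0 to 2.40 against 4.54 to 6.82 and a difference of -4.58 ± 0.42 (SE, limma adjusted p = 0.016). Neither gene passed in edgeR.

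The 82 activity genes tested in this comparison had a median log2 fold change of 1.66 against -0.20 over all genes, and 28 were higher and 2 lower at an unadjusted p under 0.05 (36.6% in either direction, against 8.06% of all genes in either direction and 3.04% of all genes higher). Homer1 averaged 6.12 in FOS+ nuclei without Fos mRNA and 1.92 in FOS- nuclei, Inhba 10.0 and 5.62, Nr4a2 5.22 and 1.16, and Tet3, a methylcytosine dioxygenase, 8.47 and 4.15. For each of these 4 genes the value was higher in all 5 mice, and none passed in edgeR. In FOS- nuclei, Inhba was at 1.78 in the 1h mouse and 5.35 to 8.56 in the A>A mice. Tet3 was at 2.22 there and 3.23 to 5.75 in the A>A mice, so both gaps were widest in the 1h mouse. Homer1 and Nr4a2 of the 1h mouse lay within the range of the A>A mice. Nptx1 averaged 6.56 and 6.47. Npas4 was above 1 in 7.78% and 2.99% of nuclei and did not reach the count filter. Sgk1 averaged 5.91 and 3.81, higher in 4 of 5 mice. Cell type markers also differed between these classes. The 13 tested granule neuron markers had a median of -0.69 (4 higher, and at an unadjusted p under 0.05 2 higher and 2 lower), the 10 interneuron markers 0.60 (8 higher, none at an unadjusted p under 0.05), the 7 pyramidal neuron markers 0.47 and the 9 glial and vascular markers -0.21. Their part in the activity gene values was not tested. This comparison shares its FOS+ nuclei without Fos mRNA with the first, so the values of one bear on the other.

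Lists of early, sustained and late genes that the study had drawn up from the nuclei of this series were read in both comparisons. As they were chosen on these samples, they are not independent evidence. For nuclei with against without Fos mRNA, 249 early genes had a median log2 fold change of 0.08, with 13 higher and 0 lower at an unadjusted p under 0.05 (5.22%, against 3.02% of all genes in either direction and 0.874% higher). The 107 sustained genes had a median of 0.00 and the 129 late genes a median of -0.24. For FOS+ against FOS- nuclei without Fos mRNA the medians were 1.33, 0.79 and -0.46, and 227 of 248 early genes (91.5%) were higher, against 42.5% of all genes tested.

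**Figure D4:**
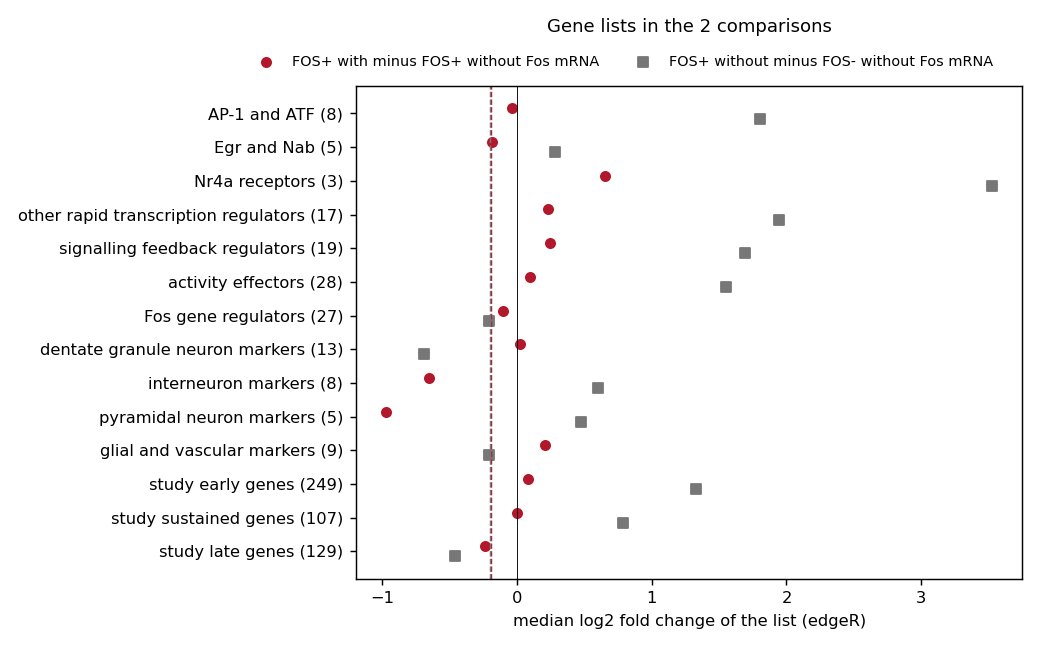
Median edgeR log2 fold change of each gene list (genes tested in the Fos mRNA comparison in brackets), with circles for FOS+ nuclei with minus without Fos mRNA and squares for FOS+ minus FOS- nuclei that lack Fos mRNA, and dashed lines for the medians over all genes. Activity lists lie between -0.19 and 0.65 for the circles and between 0.28 and 3.53 for the squares.

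Genes named by the same rule in the stain comparison, beside Kdm6b, were the microtubule-associated kinase gene Dclk1 (4117 against 877 CPM), the centrosomal coiled-coil gene Tacc1 (1402 against 531 CPM), the RNA-binding protein gene Hnrnpa2b1 (1348 against 642 CPM) and the glucose transporter gene Slc2a1 (496 against 29.7 CPM). These 4 were higher in the FOS+ class in all 5 mice, which the rule required, with edgeR adjusted p of 0.15 to 0.18. Over all genes tested, 815 (5.64%) were higher and 961 (6.65%) lower in that class in all 5 mice. In the other direction, Iqcg, Hs1bp3, AI480526, Cars2 and Coprs each had 1 count in the 62 FOS+ nuclei and were counted in 10, 15, 24, 12 and 9 of the 91 FOS- nuclei, with an adjusted p of 0.15 each. With 1 count among FOS+ nuclei, each passed the count filter only through the FOS- sums, so only a lower value could be found.

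Whether the difference with Fos mRNA depended on the second environment was examined through the interaction of class and exposure in the 5 A>A and 2 A>C mice. With edgeR, 0 of 11539 genes passed (0%), 262 (2.27%) had an unadjusted p under 0.05, limma called 0 of 9481, and DESeq2 called 318 (2.76%). The A>C mice shared a batch of their own, so exposure and batch cannot be told apart in this comparison. Differences did not overlap between A>A and A>C mice for 338 genes that were more positive in the A>A mice (2.93%) and 602 that were more negative (5.22%). Genes were named here by the smallest unadjusted p among these. The 10 genes were Rps2-ps6, Commd6, Hras, 1700021F05Rik and Slc43a2, with the more positive difference in the A>A mice, and Gm14048, Slc25a37, Gm26596, Cxx1c and Rpgr, with the opposite sign. Each was counted in 40.3% of nuclei or fewer and had an edgeR adjusted p of 1.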

How the data were processed

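Single nuclei were sequenced by SmartSeq2. The authors trimmed the reads, aligned them to mm10 with RSEM (Bowtie) and deposited expected counts and log2(TPM+1) values per gene and nucleus. Of 912 columns, 344 were used and 568 were not used here. The counts used held whole numbers. Fos was removed before library sizes were computed. Nuclei were summed per mouse and class (at least 2 nuclei per sum), filtered by filterByExpr, scaled by TMM and tested with edgeR 4.0.16 (quasi-likelihood, mouse as block, Benjamini-Hochberg, threshold 0.05) in R 4.3.3. The alternatives were limma 3.58.1 with a trend on class means of log2(TPM+1) (pseudocount 1), DESeq2 1.42.0, other filters, scalings and thresholds, thinning to 100000 counts, and leaving out each mouse. Scripts were tested on simulated data.

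The mouse, as numbered in the labels, was the replicate and the block, since both classes came from the same animal. Deviations of the 2 sums of a mouse from their class means correlated at -0.0074 to 0.097. Named genes were the 5 per direction past the threshold with the same sign in every mouse and the largest fold change, filled by the smallest unadjusted p where fewer passed, and activity genes from the lists. For the interaction with exposure, the same sign in every mouse was replaced by per-mouse differences that did not overlap between A>A and A>C mice. The members and lists were chosen with earlier results of these data known. Depth is given as total counts per nucleus, and the SD is over mice. TPM allows levels of genes to be compared per length. CPM values are the means over mice of the summed counts. Reads were SmartSeq2 PCR reads without molecular identifiers, and the method does not mark strand, so overlapping genes cannot be told apart. The result for 1 marker gene is not reported here.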

Additional observations from a re-analysis of the deposited data

Results flagged for a closer look

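The difference between nuclei with and without Fos mRNA was examined in the A>A mice for genes in which 1 of the 5 mice stood far from the other 4. Of 49 sets of values examined, 4 had such a mouse, all of them genes, and chance gives about 1 in 20. The 49 sets also took in depth and, over all A>A mice, the share of nuclei with Fos mRNA. For Sgk1, A>A mouse 15 had a difference of 3.26 in log2(TPM+1), and the others had 1.08 to 1.66. For Nr4a3, the same mouse had 3.08, against -0.34 to 0.57 in the others. For Fosl2, A>A mouse 25 had -3.33, and the others had 1.23 to 2.53. For Dusp5, a phosphatase of ERK, A>A mouse 24 had 1.67, against 0 to 0.41. FOS- nuclei with Fos mRNA were used in no comparison. There were 16 with Fos above 1 among 116 kept FOS- nuclei, or 4.17% to 33.3% per mouse, and some of these rested on 1 or 2 counts.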

How the results depend on the processing

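Of 663 alternative values, 629 counted as unchanged. For genes and depth this meant the same direction and side of the threshold, and for counts of genes called an equal count. For list medians (101 of 105 unchanged) it meant a move smaller than the SD of the medians over mice, whatever the sign. In the Fos mRNA comparison, the AP-1 and ATF median went from -0.04 to 0.08 after thinning. That of the activity effectors went from 0.09 to -0.05. The count of genes called with against without Fos mRNA was 0, and it became 1 without the mouse block, 1 with at least 5 nuclei per sum and 545 by DESeq2, while leaving out each mouse gave 0 to 1 (1 without A>A mouse 27, Ccnf in each case). For FOS+ against FOS- nuclei without Fos mRNA the count of 0 became 37 without the mouse block, 2222 by DESeq2, 2 by limma, 2 after thinning (Dclk1 and Kdm6b) and 1 in the A>A mice alone, and leaving out each mouse gave 0 to 1. The interaction with exposure had 318 calls by DESeq2 and 0 to 0 when each mouse was left out.

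The edgeR log2 fold change of Nr4a3 was -0.014 in the A>A mice alone. The difference in genes above 1 turned from -12.6 to 22.1 with any Fos count as with Fos and to 33.6 after thinning. On the mean log2(TPM+1) scale the median of the Fos gene regulators was 0.23, and in the stain comparison those of other rapid regulators, interneuron markers and pyramidal neuron markers were 1.32 (1.95 in edgeR), 0.86 (0.60) and -0.080 (0.47). The causes were not tested. In the class with Fos mRNA, 18 nuclei held 3 counts of Fos or fewer, and a count of 0 for Fos does not show that the message was absent. DESeq2 and edgeR differed in their calls on the same sums. A>A mouse 27 gave only 2 nuclei with Fos mRNA.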
